A study of Mus musculus with 13 samples.

Results

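The genes described here, 10 in number, belong to the neuromuscular junction and to the muscle's response to loss of its nerve, and they were followed across 13 arrays of mouse quadriceps muscle. They are Chrna1, Chrnb1, Chrnd, Chrne, Musk, Ncam1, Hdac4, Dach2, Runx1 and Etv5, taken by name with all of their probe sets. Of the 10 genes, 9 had a probe set named in the annotation used, with 20 probe sets in all, and 8 were bright enough to be tested among the 10411 genes of the gene-level fit, out of 17097 genes named. Hdac4 had no probe set under its name. Chrnd had 1 probe set, which lay below the brightness filter, so its values come from the fit over all 45037 probe sets.

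The study asked what ablation and gain of function of DOR, now called Trp53inp2, do to gene expression in skeletal muscle. Its groups were C (n = 3), SKM-KO (n = 3), Wt (n = 3) and SKM-Tg (n = 4). All were male C57Bl/6 mice of 4 months on standard chow, with 1 array per mouse. The labels do not pair the groups; from their names and the design, SKM-KO is set against C here and SKM-Tg against Wt. The mouse numbers in the sample titles of C and SKM-KO are interleaved in one range, and those of Wt and SKM-Tg in another, higher range. The promoter of the transgene, the driver of the ablation, the founder line and the litters are not given in the sources used here. The deposited values are log2 signals, so a difference of 1 is a doubling.

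At the neuromuscular junction the motor nerve releases acetylcholine onto a small patch of the fibre membrane that is packed with acetylcholine receptors. Nerve-derived agrin acts through Lrp4 on the kinase MuSK to cluster the receptors there, and nuclei beneath the synapse transcribe receptor genes that electrical activity silences in the rest of the fibre. When the nerve is lost this silencing ends: HDAC4 rises and represses Dach2, the repression of myogenin by Dach2 is lifted, and myogenin and MyoD act on E-boxes in the promoters of Chrna1, Musk and related genes.

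The sequences just upstream of 5 of these genes are shown: the receptor subunit genes with a window at hand, Musk and Dach2. Each is the 120 bases before a RefSeq transcript start (GRCm38.p6), read 5′ to 3′ on the gene's own strand. Capitals mark E-boxes, CANNTG, the motif of myogenic factors, and the N-box CCGGAA, a motif of Ets factors, the family to which Etv5 belongs. Both strands were searched, and none of the marked motifs overlapped. The coordinates are chr2:73580339-73580458 (minus strand) for Chrna1, chr11:69795938-69796057 (minus) for Chrnb1, chr11:70619195-70619314 (minus) for Chrne, chr4:58285842-58285961 (plus) for Musk and chrX:113297390-113297509 (plus) for the more upstream of the 2 Dach2 starts.
Chrna1: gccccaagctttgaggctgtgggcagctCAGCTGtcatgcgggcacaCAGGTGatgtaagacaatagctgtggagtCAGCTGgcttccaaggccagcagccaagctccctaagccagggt
Chrnb1: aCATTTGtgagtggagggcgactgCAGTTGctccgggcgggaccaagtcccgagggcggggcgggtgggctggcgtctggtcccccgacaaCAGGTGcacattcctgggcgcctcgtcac
Chrne: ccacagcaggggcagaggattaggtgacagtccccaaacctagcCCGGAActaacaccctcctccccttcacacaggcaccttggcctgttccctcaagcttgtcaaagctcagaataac
Musk: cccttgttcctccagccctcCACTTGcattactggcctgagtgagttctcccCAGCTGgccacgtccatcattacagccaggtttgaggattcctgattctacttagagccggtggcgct
Dach2: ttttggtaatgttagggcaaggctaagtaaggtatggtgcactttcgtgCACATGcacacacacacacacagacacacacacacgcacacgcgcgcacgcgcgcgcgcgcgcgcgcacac

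Chrna1 and Chrnb1 hold 3 E-boxes each in this window, Musk holds 2, and Chrne holds 0 E-boxes and 1 N-box. The upstream Dach2 window holds 1 E-box and the other Dach2 window holds 0. Of the windows not shown, 1 Runx1 window holds 1 N-box and the other holds 1 E-box, and the Hdac4 window holds neither motif. Over all 32851 RefSeq windows of this length, 40.2% hold at least 1 E-box, 10.6% hold 2 or more, and 8.07% hold an N-box. These are letter matches; binding was not measured. Windows were at hand for 8 of the 10 genes, without Chrnd and Ncam1.

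Trp53inp2 was 2.35 lower on the log2 scale in SKM-KO than in C (SE 0.14, limma adjusted p 3.76e-06), while SKM-Tg averaged 11.17 ± 0.11 (SD, n = 4) and Wt 11.22 ± 0.23 (SD, n = 3), so the targeted transcript set SKM-KO apart and did not set SKM-Tg apart. The array Wt 2 stood apart: over genes, its median correlation with the other arrays was 0.917, against 0.968 to 0.990 for the other 12 arrays, and it held the highest value of 39.3% of the genes tested. For the tested members, values of the brightest probe set in SKM-Tg minus Wt, and those named in Wt minus C, are therefore also given without Wt 2. Muscle fibre markers were among the brightest genes: the means of 9 such genes over all arrays, among them Acta1 and Ckm, lay at the 96.9th percentile or higher of the genes tested.

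The adult acetylcholine receptor is built from the α, β, δ and ε subunits, encoded by Chrna1, Chrnb1, Chrnd and Chrne. Chrne, whose product replaces the γ subunit of fetal muscle, read 7.55, 7.86 and 7.81 in C and 8.09, 7.79 and 8.01 in SKM-KO. It read 8.03, 8.71 and 7.66 in Wt and 7.63, 7.76, 7.96 and 7.57 in SKM-Tg. The C and SKM-KO arrays overlapped, SKM-Tg overlapped the lower part of the Wt range with 2 arrays below all Wt arrays, and Wt 2 was the highest array of all. SKM-KO minus C was 0.22 (SE 0.21, limma adjusted p 1.0). SKM-Tg minus Wt was -0.40 (SE 0.20, 95% interval -0.84 to 0.03, limma adjusted p 0.702), the widest change of any member in that comparison, and it was -0.12 without Wt 2.

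Chrna1, the ligand-binding α subunit, read 6.44, 7.14 and 6.75 in C and 6.95, 6.87 and 7.25 in SKM-KO. Its values were 7.11, 7.61 and 6.95 in Wt and 6.62, 6.70, 7.25 and 6.99 in SKM-Tg. Wt 2 was again the highest array, C 1 the lowest, and each pair of groups overlapped. The differences were 0.25 (SE 0.22) for SKM-KO minus C and -0.34 (SE 0.21) for SKM-Tg minus Wt, with limma adjusted p of 1.0 and 0.702. Without Wt 2 the second difference was -0.14.

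Chrnb1, the β subunit, moved least among the 3 tested subunits in SKM-Tg. It read 7.52, 6.86 and 6.93 in C, 6.75, 7.08 and 6.94 in SKM-KO, 6.69, 6.78 and 7.26 in Wt, and 6.83, 6.82, 6.99 and 6.95 in SKM-Tg. The array C 1 was above all others. SKM-KO minus C was -0.18 (SE 0.18) and SKM-Tg minus Wt was -0.011 (SE 0.17). Without C 1 the first turned to 0.028, and without Wt 2 the second was -0.078.

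Chrnd, the δ subunit, was dim, with group means from 4.12 in C to 4.40 in Wt. In 12 of the 13 arrays it read between 4.02 and 4.32, and Wt 2 read 4.96. The identical value 4.156 stood on 5 arrays, and such a tie of 5 or more arrays occurred in 0.837% of all probe sets. SKM-KO minus C was 0.04 (95% interval -0.35 to 0.44) in the fit over all probe sets. In the same limma fit SKM-Tg minus Wt was -0.23 (95% interval -0.60 to 0.14, adjusted p 0.790), with Wt 2 raising the Wt mean. The fetal γ subunit, Chrng, named here because it completes the receptor, read between 5.45 and 5.89 on all arrays and differed by -0.02 (SKM-KO minus C) and 0.0075 (SKM-Tg minus Wt), the latter -0.040 without Wt 2.

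**Figure D1:**
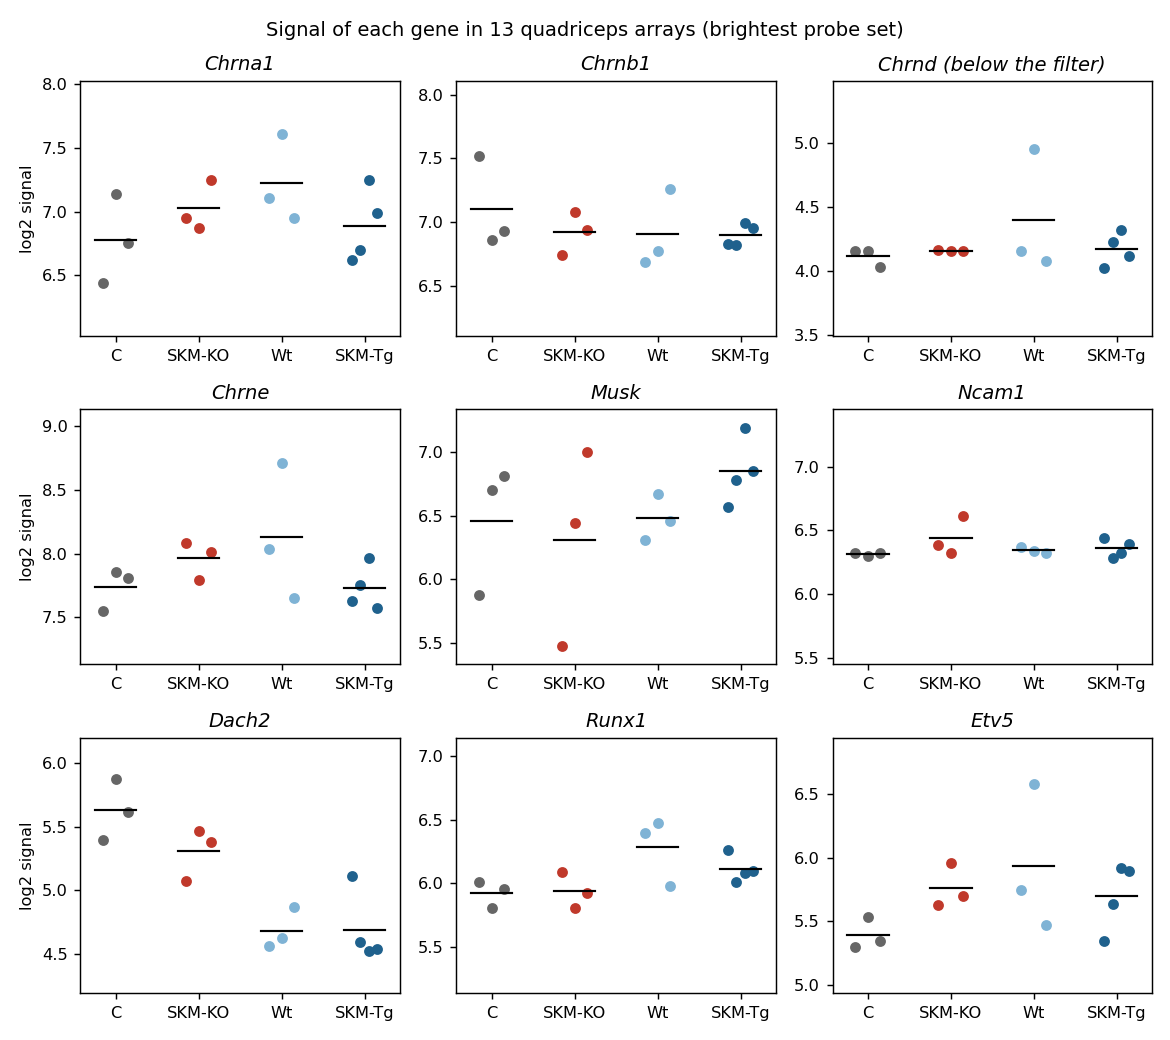
Log2 signal of each member's brightest probe set on each of the 13 arrays (points, by group) with the group mean as a line; each panel has its own axis, and Chrnd lies below the filter. The groups overlap for the receptor subunits, Musk and Ncam1, while the Dach2 arrays of Wt and SKM-Tg, 4.52 to 5.11, lie mostly below those of C and SKM-KO, 5.08 to 5.87.

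Musk, the kinase that organises the postsynaptic membrane, was the most variable member. It read 5.87, 6.70 and 6.81 in C, 5.48, 6.44 and 6.997 in SKM-KO, 6.31, 6.67 and 6.46 in Wt, and 6.57, 6.78, 7.19 and 6.85 in SKM-Tg. The spread within a group was wide: SKM-KO alone ran from the lowest value on any array to the second highest. The pooled SD within groups was 0.467, at the 97.2nd percentile of the genes tested, whose median was 0.190, and the array extremes were 3.26-fold apart. SKM-KO minus C was -0.15 (SE 0.33, 95% interval -0.87 to 0.56), and it turned to 0.26 without SKM-KO 1. SKM-Tg minus Wt was 0.37 (SE 0.31, 95% interval -0.30 to 1.04, limma adjusted p 0.717) and 0.46 without Wt 2.

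Ncam1, the neural cell adhesion molecule that spreads along the fibre surface after loss of the nerve, was the opposite case. Its brightest probe set read 6.28 to 6.61 over all arrays, with a pooled SD of 0.0844, at the 5.25th percentile. SKM-KO 3 was the highest array at 6.61, and the other arrays lay between 6.28 and 6.44. The value 6.3225 stood on 5 arrays, the same kind of tie as for Chrnd. Its differences were 0.13 (SE 0.095) in SKM-KO minus C and 0.015 (SE 0.089) in SKM-Tg minus Wt, the latter 0.013 without Wt 2. The other 5 Ncam1 probe sets gave no common direction in SKM-Tg minus Wt: over all 6, 3 were higher and 3 lower, from -0.23 to 0.19. In SKM-KO minus C, 5 of the 6 were higher, with none above 0.15.

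Dach2, the repressor of myogenin that innervated muscle expresses, differed between the 2 pairs of groups more than any other member, while neither genotype comparison of it passed the threshold. Its brighter probe set read 5.39, 5.87 and 5.62 in C and 5.08, 5.47 and 5.38 in SKM-KO. It read 4.56, 4.63 and 4.87 in Wt and 5.11, 4.59, 4.52 and 4.54 in SKM-Tg. All Wt arrays lay below all C and SKM-KO arrays, and 1 SKM-Tg array, SKM-Tg 1, lay above the lowest SKM-KO array. The dimmer probe set, below the filter, was also lower in Wt and SKM-Tg than in C and SKM-KO, with the Wt and SKM-Tg means in the other order. On it C and SKM-KO did not overlap with each other or with the other groups: 4.63, 5.01 and 4.90 in C, 4.54, 4.61 and 4.61 in SKM-KO, 3.65, 3.64 and 4.09 in Wt, and 4.28, 3.54, 3.44 and 3.66 in SKM-Tg. By their brightest probe set, 7.49% of the genes tested had SKM-KO apart from C. For Wt and SKM-Tg apart from C and SKM-KO the share was 5.98%. SKM-KO minus C was -0.32 (SE 0.18, 95% interval -0.70 to 0.06, limma adjusted p 1.0) for the brighter probe set and -0.26 for the dimmer one. SKM-Tg minus Wt was 0.0075 (SE 0.17, 95% interval -0.35 to 0.37) and -0.06, and the brighter one gave -0.022 without Wt 2.

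Runx1, a transcription factor that rises when muscle loses its nerve, had 6 probe sets, of which 3 passed the filter. The brightest read 6.01, 5.81 and 5.96 in C, 6.09, 5.81 and 5.93 in SKM-KO, 6.39, 6.48 and 5.98 in Wt, and 6.26, 6.01, 6.08 and 6.10 in SKM-Tg. The next brightest read 5.05, 4.52 and 4.99 in C, 5.10, 4.74 and 4.99 in SKM-KO, 5.32, 5.87 and 5.38 in Wt, and 5.49, 5.51, 5.43 and 5.15 in SKM-Tg. For this next brightest probe set every Wt and SKM-Tg array was above every C and SKM-KO array. By their brightest probe set, 5.98% of the genes tested had these arrays apart in either direction. The dimmest of the 3 read 4.58 to 5.18 and did not separate the groups in that way. Within the 2 genotype comparisons Runx1 differed by 0.015 (SE 0.13) in SKM-KO minus C and by -0.17 (SE 0.13) in SKM-Tg minus Wt, the latter -0.076 without Wt 2.

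Etv5, an Ets factor that nuclei under the synapse express and that promotes transcription of synaptic genes, was, by the brightest probe set of each, the only tested member whose SKM-KO and C arrays did not overlap. It read 5.30, 5.53 and 5.35 in C and 5.63, 5.96 and 5.70 in SKM-KO. In Wt it read 5.74, 6.58 and 5.48, and in SKM-Tg 5.34, 5.63, 5.92 and 5.90. The lowest SKM-KO array lay 0.09 above the highest C array, and Wt 2 was the highest of all. SKM-KO minus C was 0.37 (SE 0.24, 95% interval -0.15 to 0.88, limma adjusted p 1.0), and 7.49% of the genes tested had SKM-KO and C arrays that did not overlap. That SE pools the spread of all groups, and the SD of Etv5 was 0.57 in Wt against 0.12 in C and 0.17 in SKM-KO. A limma fit of only the C and SKM-KO arrays gave an SE of 0.11 (unadjusted p 0.0105, adjusted p 0.99994). SKM-Tg minus Wt was -0.23 (SE 0.22) and turned to 0.087 without Wt 2. Its promoter windows, 2 in number, hold neither motif.

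**Figure D2:**
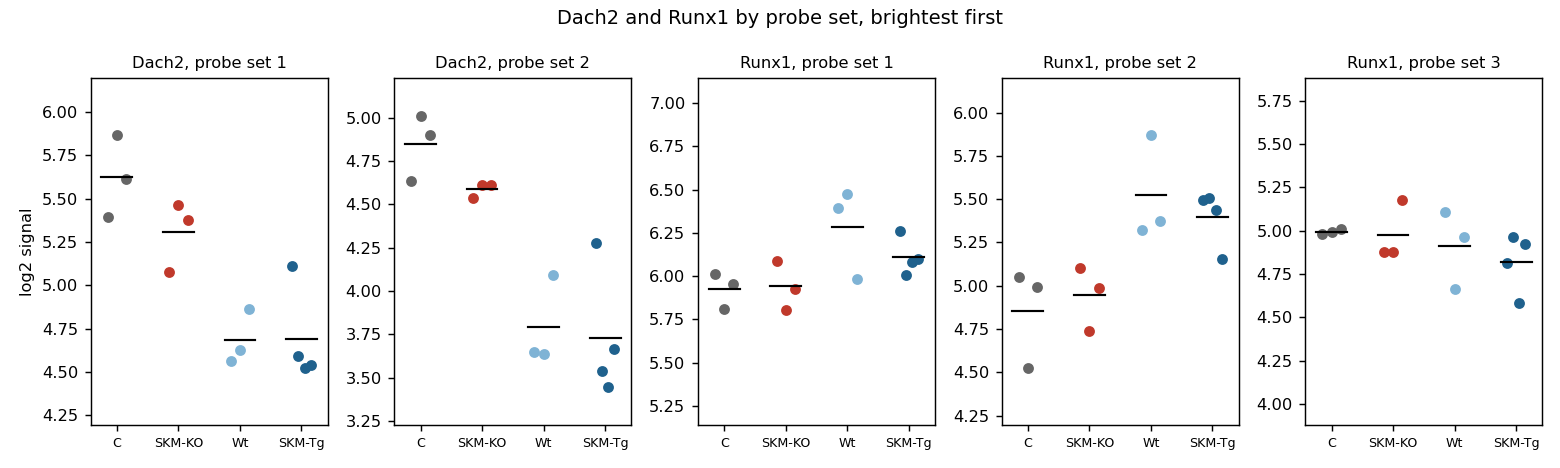
Log2 signal of the 2 Dach2 probe sets and the 3 brightest Runx1 probe sets on each array (points, by group), with the group mean as a line and an axis for each panel. Both Dach2 probe sets are lowest in Wt and SKM-Tg, the second Runx1 probe set is highest there, and its dimmest shown, 4.58 to 5.18, overlaps between all groups.

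Over the members as a group, 0 of 8 passed the threshold of an adjusted p of 0.05 in SKM-KO minus C, where 1 gene of 10411, Trp53inp2, did (0.00961%). There, 5 members were higher and 3 lower, with a median of 0.07 against 0.0077 for all genes, and 0 had an unadjusted p under 0.05 against 0.557% of genes. The latter count depended on the fit. Etv5 was under 0.05 without Wt 2 and with only the C and SKM-KO arrays, and Etv5 and Dach2 were with array quality weights. The share of all genes under 0.05 was not taken for those fits, and no member passed the threshold in them. In SKM-Tg minus Wt, again 0 of 8 passed, where 0 genes passed at all (0%), and 0 had an unadjusted p under 0.05 against 6.89%. Of the 8, 3 were higher and 5 lower, with a median of -0.09 against -0.05, and 0 members had groups that did not overlap, against 3.97% of genes. Leaving out Wt 3 raised the genes passing in SKM-Tg minus Wt from 0 to 30, and still 0 members passed. The fit over all probe sets called 0 of the 20 member probe sets in either comparison, where it called 0.00666% and 0% of all probe sets.

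The difference between the 2 effects was also tested for each member, and 0 of 8 passed where 0.0192% of genes did. None had an unadjusted p under 0.05 there, against 3.1% of genes. The widest differences were -0.63 for Chrne (SE 0.29, 95% interval -1.26 to 0.0088), -0.60 for Etv5 (SE 0.33) and -0.58 for Chrna1 (SE 0.30), each with a limma adjusted p of 0.989. All 3 were positive in SKM-KO minus C and negative in SKM-Tg minus Wt. Without Wt 2 the differences shrank to -0.34, -0.28 and -0.39, and Etv5 in SKM-Tg minus Wt turned to 0.087. Without Wt 3 they widened to -0.87, -0.83 and -0.72 (limma adjusted p 0.315 to 0.326). The size of each thus depended on single Wt arrays. In the fit over all probe sets 0 of 20 member probe sets passed, against 0.00444% of all.

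**Figure D3:**
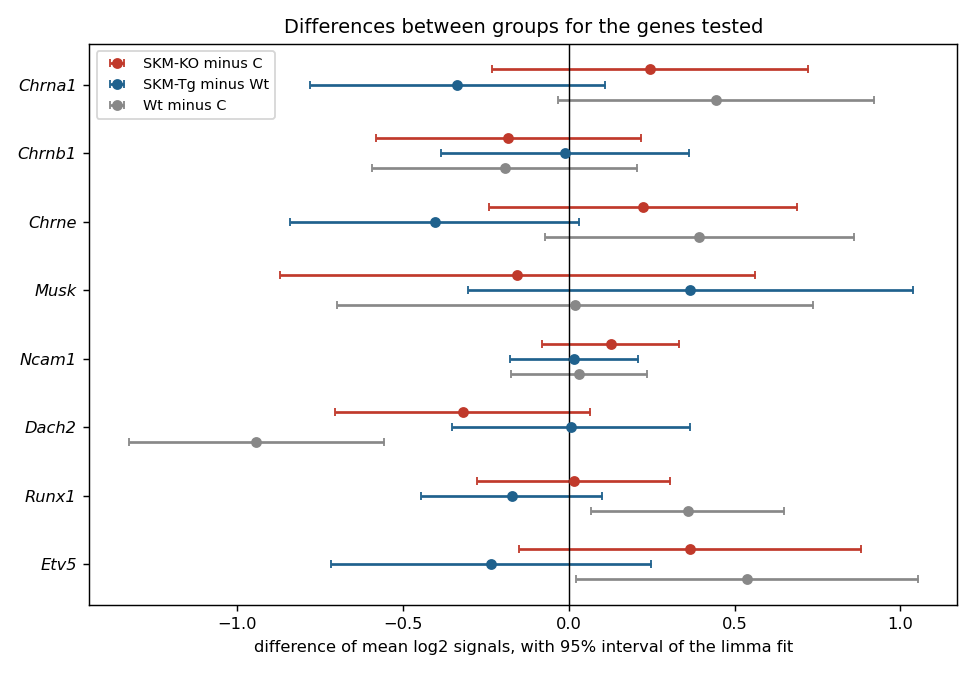
Log2 change of the 8 tested members for the SKM-KO, SKM-Tg and control comparisons (points, 1 colour each), with bars for the 95% intervals of the limma fit. All intervals of SKM-KO minus C and of the transgenic comparison include 0, and the Dach2 interval in Wt minus C, -1.33 to -0.56, does not.

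Intervals show what these arrays could resolve. For the brightest probe set of Dach2, SKM-Tg minus Wt was bounded between -0.35 and 0.37, and for that of Ncam1 between -0.18 and 0.21. A doubling of either signal lay outside the interval. Dach2 was dim in Wt and SKM-Tg, at 4.68 and 4.69 against the filter of 4.90. Another Ncam1 probe set past the filter had a wider interval, -0.26 to 0.63, in the fit over all probe sets. For Musk the interval of SKM-Tg minus Wt reached 1.04, which includes a doubling. In the order of the group means, of Chrna1, Chrnb1, Chrnd, Chrne, Musk, Ncam1 and Etv5, 0 had a step between neighbouring group means above the pooled SD. Dach2 had 2 such steps, with Wt and SKM-Tg only 0.0075 apart, SKM-KO 0.61 above SKM-Tg, and C 0.32 above SKM-KO. Runx1 had 2 steps of 0.17 each, just above its pooled SD of 0.162. The pooled SD is the spread of single arrays within groups, so these steps do not test differences between means. From the lowest to the highest group mean, the gap was above the pooled SD for each gene except Chrnb1 (0.20 against 0.24).

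The 2 control groups were then compared with each other, Wt minus C. Dach2 was 1.92-fold lower in Wt (log2 change -0.94, SE 0.18, 95% interval -1.33 to -0.56), with a limma adjusted p of 0.144, above the threshold. Its means in Wt and SKM-Tg, 4.68 and 4.69, lay below the brightness filter of 4.90, so it entered the test through its level in C and SKM-KO. Etv5 was 0.54 (adjusted p 0.170) and Runx1 0.36 (adjusted p 0.147) above C by the same limma fit. Over all 6 Runx1 probe sets, 3 were higher and 3 lower, from -0.21 to 0.67. Of the 8 members 0 passed, as 0.00961% of genes did, and 3 had an unadjusted p under 0.05, against 27.8% of genes. By the brightest probe set of each, only Dach2 had arrays that did not overlap, against 23.9% of genes. Without Wt 2 the values were -0.91 for Dach2, 0.22 for Etv5 and 0.26 for Runx1. Without Wt 3, 4 members passed together with 4124 genes, so that count rests on 1 array. Their changes were then 0.63 for Chrne, -1.03 for Dach2, 0.51 for Runx1 and 0.77 for Etv5. The fit over all probe sets called 0 of 20 member probe sets here, against 0.00888%.

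Because Dach2 was low in both Wt and SKM-Tg, the mean of these groups was set against the mean of C and SKM-KO, a comparison added after the values had been seen. Its p-value for Dach2 restates the pattern that prompted it and is no independent evidence, so the values are a description. Dach2 was 1.71-fold lower in Wt and SKM-Tg (log2 change -0.78, SE 0.12, 95% interval -1.04 to -0.51, limma adjusted p 0.0132), and its dimmer probe set was 1.94-fold lower (adjusted p 0.0158 in the limma fit over all probe sets). Of the tested members it alone passed, and 16.9% of all genes passed. Runx1 was 0.27 higher (SE 0.092, limma adjusted p 0.0612), and its next brightest probe set 0.56 higher (limma adjusted p 0.0375). The Runx1 probe sets gave no common direction: over all 6, 3 were higher and 3 lower, from -0.13 to 0.56. By the brightest probe set of each, 2 members had an unadjusted p under 0.05, against 38.9% of genes, and 0 had arrays that did not overlap, against 5.98%. Of the 20 member probe sets 3 passed, against 3.63% of all probe sets. They were the 2 of Dach2, the gene that prompted the comparison, and 1 of the 6 of Runx1. The share among members was thus partly set by the choice of comparison and is no measure of enrichment. Musk, at 0.28, Etv5, at 0.24, and the 4 remaining tested members had limma adjusted p of 0.291 or more.

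This comparison depended on single arrays. Without Wt 2 Dach2 was -0.76 (limma adjusted p 0.0140). Its adjusted p rose above the threshold without SKM-KO 2 (0.0519) and without SKM-KO 3 (0.0542), with changes of -0.74 and -0.76. Over all arrays left out in turn, the change of the brighter Dach2 probe set stayed between -0.85 and -0.72, so its size moved little while its call did not hold throughout. The dimmer Dach2 probe set stayed between -1.05 and -0.91, with a limma adjusted p above the threshold without C 2, C 3, SKM-KO 2, SKM-KO 3 or Wt 1 (0.0666 at most). The number of genes passing ran from 15 without SKM-KO 2 to 4758 without Wt 3. Runx1 passed at gene level without Wt 3 (0.34, limma adjusted p 0.00457). The next brightest Runx1 probe set still passed only without Wt 2, Wt 3 or SKM-Tg 1, and its adjusted p reached 0.105 without SKM-KO 2. Whether Wt and SKM-Tg mice were bred, dissected or processed apart from C and SKM-KO mice is not given, so line and such differences cannot be told apart.

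**Figure D4:**
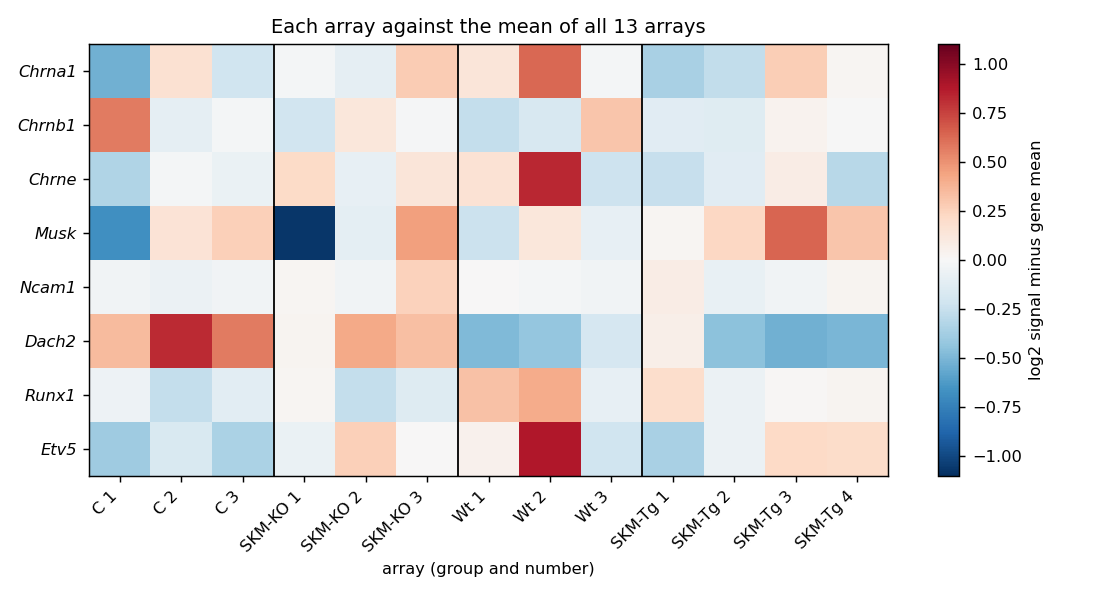
Deviation of each array from the 13-array average for the 8 tested members, in log2 units, by group. Wt 2 is the highest array for Chrna1, Chrne, Runx1 and Etv5, and Dach2 is negative on all Wt arrays and on 3 of the 4 SKM-Tg arrays.

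Other genes of the synapse were read from a list of 28, of which 24 were named on the array and 19 tested. In SKM-KO minus C, 12 were higher and 7 lower, and 0 passed. The smallest p-values belonged to Sntb1 (-0.34, SE 0.20), a syntrophin of the dystrophin complex, Erbb3 (0.20, SE 0.16), a neuregulin receptor, and Ufsp1 (0.26, SE 0.31), each with a limma adjusted p of 1.0. In SKM-Tg minus Wt, 6 were higher and 13 lower, and 0 passed. Sntb1 was 0.46 (SE 0.19), Lamb2, the synaptic laminin β2, -0.43 (SE 0.18), and Agrn, the nerve and muscle proteoglycan that activates MuSK, -0.33 (SE 0.15), each with a limma adjusted p of 0.702. Without Wt 2 these were 0.63, -0.19 and -0.14. The list medians, 0.04 and -0.07, lay beside 0.0077 and -0.05 for all genes.

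The denervation list held 20 genes, with 18 named and 16 tested; Chrng stands in both lists. In SKM-KO minus C, 7 were higher and 9 lower, and 0 passed. Myod1, the myogenic factor, was -0.46 (SE 0.20), Cdkn1a, an inhibitor of the cell cycle, 0.38 (SE 0.19) and Nes, the intermediate filament nestin, 0.23 (SE 0.12). In SKM-Tg minus Wt, 3 were higher and 13 lower, and 0 passed, with 5 at an unadjusted p under 0.05 beside 6.89% of all genes. Of all genes 37.8% were higher, and the list median was -0.06 against -0.05. Ankrd1, a stress-responsive ankyrin repeat protein of the sarcomere, was -1.09 (SE 0.34, limma adjusted p 0.691), Myod1 -0.54 (SE 0.18) and Mybph, a myosin-binding protein, 0.78 (SE 0.31). Without Wt 2 they were -1.41, -0.43 and 1.06. Myog, named here because Dach2 acts on it, was -0.21 (SE 0.24) in SKM-KO minus C and -0.39 (SE 0.23) in SKM-Tg minus Wt. The latter was -0.052 without Wt 2, which read 6.53 where the other Wt arrays read 5.48 and 5.58. Leaving out each array in turn gave 0 passing genes of either list in both comparisons.

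**Figure D5:**
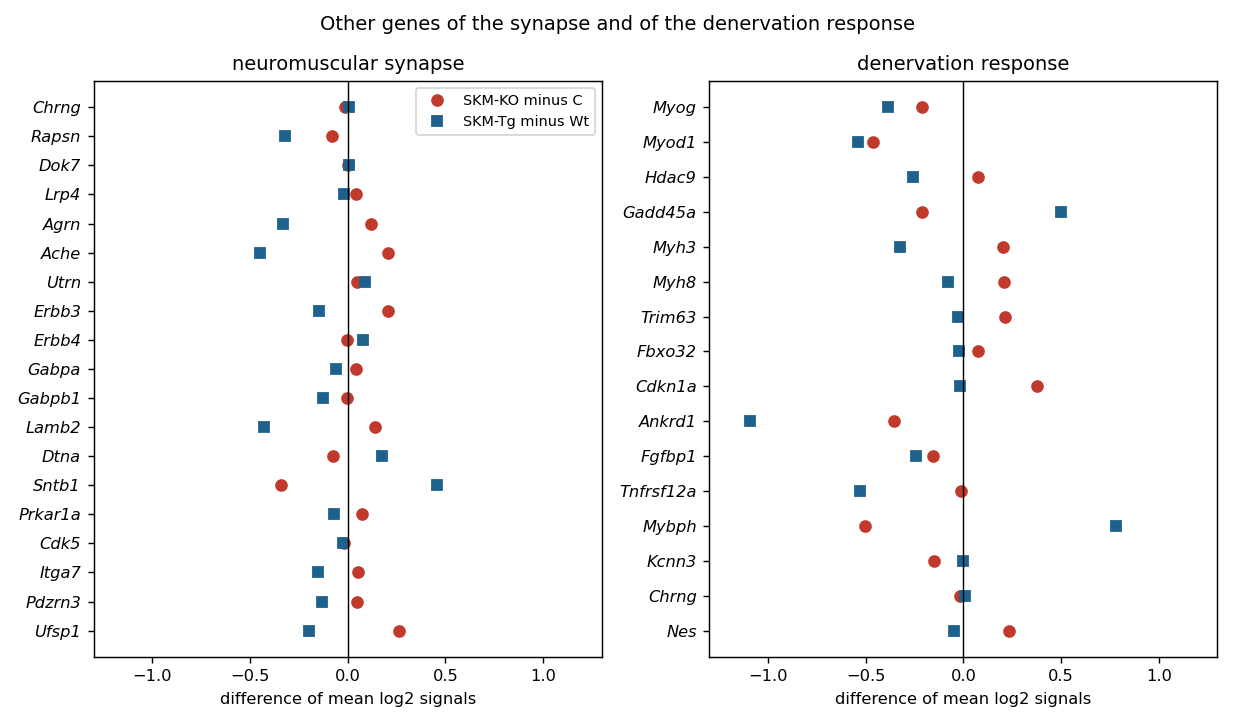
Log2 change of the tested genes of the synapse and denervation lists in SKM-KO minus C and SKM-Tg minus Wt. Of 19 and 16 genes 0 passed the threshold in either comparison, and the widest change is that of Ankrd1, -1.09 in SKM-Tg minus Wt.

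Markers of other cells moved beside these values, and their part in the results was not tested. In whole muscle, fewer cells of a type and less RNA per cell cannot be told apart. Of 14 nerve and Schwann cell markers 5 were tested (Mbp, Pmp22, Mal, Sox10 and Ngfr), and their mean signal was 6.51 to 6.54 in C, 6.58 to 7.05 in SKM-KO, 6.71 to 7.01 in Wt and 6.58 to 7.15 in SKM-Tg. The C arrays were thus the lowest for nerve markers. By the brightest probe set, the C mean was the lowest for Chrna1, Chrnd, Ncam1, Runx1 and Etv5. It was the highest for Chrnb1 and Dach2, and neither lowest nor highest for Chrne and Musk. Of 7 satellite cell markers 2 were tested, at 7.62 to 8.10 in C, 7.93 to 8.23 in SKM-KO, 7.92 to 8.65 in Wt, with Wt 2 highest, and 7.84 to 8.13 in SKM-Tg. Of 8 blood and immune markers 6 were tested, at 6.06 to 6.46 in C, 6.41 to 6.62 in SKM-KO, 6.21 to 6.48 in Wt and 5.82 to 6.59 in SKM-Tg. Fat cell markers, 3 tested of 5, varied most: 6.12 to 6.92 in C, 5.92 to 8.81 in SKM-KO, 6.27 to 8.96 in Wt and 8.22 to 10.02 in SKM-Tg. The 4 fibroblast markers tested of 5 read 8.91 to 9.52 in C, 9.09 to 9.504 in SKM-KO, 8.75 to 9.27 in Wt and 8.62 to 9.12 in SKM-Tg. The 5 endothelial markers read 8.57 to 8.66, 8.47 to 8.63, 8.64 to 8.70 and 8.14 to 8.72 in the same order. In the added comparison of Wt and SKM-Tg with C and SKM-KO, 16.9% of all genes passed. Single markers of several of these cells passed as well: Cd163 at -1.03 and Cd68 at 0.50, both of macrophages, Lum at -0.85, Tek at -0.59 and Adipoq at 2.11 (limma adjusted p 0.0159 to 0.0499). The lists they come from were mostly mixed. Of the tested blood and immune markers 3 were higher and 3 lower, of the fibroblast markers 1 and 3, and of the endothelial markers 3 and 2. Of the fat cell markers 3 were higher and 0 lower. Of the nerve and satellite cell markers 0 passed.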

How the data were processed

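The authors deposited log2 signals for 45141 probe sets on 13 arrays, made with RMA, per the submitters' processing notes, which give no version. Of the 45037 probe sets that are no controls, 28898 had 1 gene symbol in the platform annotation, 551 several and 15588 none here; 2 probe sets that carry Etv5 with Scpep1 were not used. Each gene took its probe set with the highest mean, and genes with a mean of at least 4.90, the median over probe sets, were tested. A single limma 3.58.1 model (R 4.3.3) held all arrays, with a mean for each group and empirical Bayes moderation; p-values were two-sided and adjusted by Benjamini-Hochberg over the 10411 genes. A second fit took all 45037 probe sets without a filter. The gene-level fit was tested on simulated data for SKM-KO minus C, and the second fit was not. Arrays have no sequencing depth, so their number limits the precision, and p-values measure the spread between these mice only. Values and SD are per group, and intervals are 95% intervals of the fit.

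The members and lists were chosen with earlier results of these data known. All members were named, with Trp53inp2 as the label check. From the synapse and denervation lists, genes past the threshold and the 3 smallest p-values of each genotype comparison were named. Alternatives covered the normalization, filter, probe set choice, eBayes options, array weights, a fit of only the groups compared, and each array left out. No batch, date or litter is given in the labels.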

Additional observations from a re-analysis of the deposited data

Results flagged for a closer look

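Dach2 in SKM-Tg drew attention because 1 of its 4 arrays lay far from the others. SKM-Tg 1 read 5.11 on the brighter probe set, and the next highest array read 4.59. The gap took 0.879 of the group's range, above Dixon's 95% critical value for 4 arrays. Of the 20 member probe sets, 1 was marked in this way in the only group of 4 arrays, and chance marks about 1 in 20. The dimmer Dach2 probe set had SKM-Tg 1 highest as well, at 4.28 against 3.44 to 3.66, without passing the critical value.

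The change of Trp53inp2 differed between the 2 genotype comparisons, while its level in the control groups was close (Wt minus C 0.089, SE 0.14). Its change in SKM-Tg minus Wt exceeded that in SKM-KO minus C by 2.29 on the log2 scale (SE 0.19, limma adjusted p 2.16e-04), the SKM-KO change being -2.35 and the SKM-Tg change -0.06. Trp53inp2 is the gene that was ablated, so this difference restates its loss in SKM-KO and is no separate result.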

How the results depend on the processing

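The 8 tested members gave 864 values under 10 alternatives and with each of the 13 arrays left out. Of these, 828 kept their direction and side of the threshold, 29 turned sign, 5 passed newly and 2 no longer passed. Array quality weights turned Runx1 in SKM-KO minus C to -0.028, Dach2 in SKM-Tg minus Wt to -0.10, Chrnb1 and Musk in Wt minus C to 0.10 and -0.13, and Chrnb1 in the difference of effects to -0.21. Cyclic loess turned Chrnb1 in SKM-Tg minus Wt to 0.055 and Musk and Ncam1 in Wt minus C to -0.038 and -0.022. Quantile normalization turned Chrnb1 in SKM-Tg minus Wt to 0.028 and Ncam1 in the added comparison to 0.015. With arrays left out, SKM-KO minus C ran from -0.30 to 0.028 for Chrnb1, -0.50 to 0.26 for Musk and -0.059 to 0.082 for Runx1. SKM-Tg minus Wt ran from -0.12 to 0.16 for Chrnb1, -0.13 to 0.098 for Dach2, -0.46 to 0.087 for Etv5 and -0.012 to 0.041 for Ncam1. Wt minus C ran from -0.37 to 0.017 for Chrnb1 and -0.27 to 0.19 for Musk, the added comparison from -0.064 to 0.20 for Chrne and -0.054 to 0.019 for Ncam1, and the difference for Chrnb1 from -0.040 to 0.35. The cause was not tested.

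The genes passing in the difference of effects fell from 2 to 1 with median centring, the 75th percentile filter and array weights. In Wt minus C they went from 1 to 0 with quantile, cyclic loess, no filter, array weights and the separate fit, and to 2 with the mean of probe sets and with every probe set, which also gave 2 in SKM-KO minus C in place of 1. In the added comparison 1034 genes passed with every probe set and 132 with array weights, in place of 1756. Members passing there were 0 with the 75th percentile filter and with the mean of probe sets, since both dropped Dach2 from the test, and 2 with every probe set. With arrays left out, SKM-KO minus C kept 1 gene passing each time; genes passing ran from 0 to 30 in SKM-Tg minus Wt, 1 to 2 in the difference, 0 to 4124 in Wt minus C and 15 to 4758 in the added comparison; members passing ran from 0 to 4 in Wt minus C and 0 to 2 in the added comparison, and were 0 throughout in the other 3. The separate fit gives no difference of effects and no added comparison. No paired analysis was possible because the labels carry no replicate number shared between groups.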

Other observations

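In the added comparison of Wt and SKM-Tg with C and SKM-KO, 3 of the 16 tested genes of the denervation list were higher and 0 lower, and 2 of the 19 tested genes of the synapse list were higher and 2 lower, where 16.9% of all genes passed. Mybph read 7.42 to 8.47 in Wt and 8.17 to 9.06 in SKM-Tg, against 6.23 to 7.39 in C and 5.98 to 6.22 in SKM-KO, a log2 change of 1.90 (SE 0.23, limma adjusted p 0.00266). Cdkn1a (0.62) and Myod1 (0.56) were the other two of the denervation list. Dok7, the adaptor that activates MuSK from inside the fibre, was 0.59 higher (SE 0.14, limma adjusted p 0.0274), and Itga7, the laminin-binding integrin of muscle, 0.51 higher (SE 0.11, limma adjusted p 0.0238). Prkar1a, a regulatory subunit of protein kinase A, changed by -0.25, and Pdzrn3, a ubiquitin ligase, changed by -0.36. Without Wt 2, where 984 genes passed in all, the same 3 denervation genes and both Dok7 (0.48) and Itga7 (0.40) passed, and Prkar1a and Pdzrn3 did not. With each array left out in turn, 1 to 4 denervation genes and 0 to 7 synapse genes were higher, and 0 to 3 synapse genes were lower. Over the same fits, 15 (without SKM-KO 2) to 4758 (without Wt 3) of all genes passed. The highest counts of both lists also came without Wt 3, so they are no result about the lists.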
